A study of Mus musculus with 4 samples.

Results

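The genes described here are the semaphorins, plexins and neuropilins, chosen as all protein-coding genes with a GENCODE M21 symbol of the forms Sema3a to Sema7g, Plxna1 to Plxnd9, or Nrp1 and Nrp2. They number 31 of the 54532 genes counted: 20 ligands (7 secreted class 3 semaphorins, 6 of class 4, 2 of class 5, 4 of class 6 and the single class 7 gene) and 11 receptors (9 plexins and 2 neuropilins). Bulk RNA-seq gave 4 libraries, all from the mouse mesenchymal line C3H10T1/2. The groups were Dnmt3a and Dnmt3b double-knockout cells (DKO, 2 libraries, clones 1 and 5), cells edited by CRISPR at the splice acceptor of Prdx1 intron 5 (PRDX1MT, 1 library, also labelled as a Prdx1 knockout) and unedited wild-type cells (WT, 1 library). All were grown in the same medium, and the series design names the silencing of Mmachc as the question. The PRDX1MT library name ends in a clone-like code of the same form as those of the DKO clones, so each edited library is read here as 1 clone. Whether a Prdx1 edit is present in DKO is not stated.

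Semaphorins are guidance cues that steer axons, blood vessels and migrating cells, and plexins are their signalling receptors. Class 3 semaphorins are secreted, and most bind a neuropilin that is held in a complex with a plexin A. Sema3e is the known exception and binds Plxnd1 directly. Classes 4 to 6 span the membrane and bind plexins without a neuropilin, and Sema7a is anchored by a lipid and binds Plxnc1 and integrins. In mesenchymal and skeletal tissue the family is known for its part in bone remodelling and vessel patterning.

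The libraries held 34901511 and 27789693 counts in DKO clones 1 and 5, 27570136 in PRDX1MT and 37685798 in WT. Prdx1 had 392 and 332 CPM (counts relative to the TMM-adjusted library size) in DKO clones 1 and 5, 31.2 CPM in PRDX1MT and 399 CPM in WT. Dnmt3a had 31.4 and 25.9 CPM in the DKO clones, 80.9 CPM in PRDX1MT and 43.7 CPM in WT, and Dnmt3b 2.83, 2.03, 3.74 and 3.28 CPM in the same order. Reads of Dnmt3a and Dnmt3b do not show whether the DKO edits are present, since a small edit need not lower them. All 10 mesenchymal markers had reads in every library, with summed levels of 21890, 40110, 33760 and 22200 CPM in DKO clone 1, DKO clone 5, PRDX1MT and WT. Most of each sum was Col1a1, Col1a2 and Vim. Nt5e had only 15, 16, 19 and 33 reads in the same order. In DKO against WT 5 of the 10 had a log2 ratio above 0 and 5 below, at a median of 0.02. Where edgeR called 0.468% and DESeq2 1.35% of all genes tested in that comparison, each called 1 of the 10. Among them Thy1, a surface glycoprotein that defines mesenchymal stem cells, was 28.2-fold lower in DKO (21.9 to 36.7), with 0.757 and 1.38 CPM in the clones, against 0.884 CPM in PRDX1MT and 29.0 CPM in WT (DKO against WT: log2 ratio -4.76, SE 0.63, edgeR adjusted p = 0.0321, and 0.173 with a filter of 1 CPM in 2 libraries). Summed levels of 6 endothelial, 8 neural and glial, 6 immune and 5 epithelial markers were at most 77.1 CPM, and most of that sum was Stmn2 in DKO clone 5 (66.6 CPM, against 8.58 CPM in clone 1, 0 in PRDX1MT and 11.8 CPM in WT). Reads in DKO clone 1, DKO clone 5, PRDX1MT and WT differed within these lists. The endothelial receptor Kdr had at most 2 in a library, but Tek had 213, 328, 407 and 238. The immune marker Ptprc had at most 4, but Cd68 had 156, 75, 71 and 87. The glial marker Gfap had 203, 13, 10 and 24. The part that other cell types may have in the values below was not tested.

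Receptors were the more abundant side. Scaled by the length of annotated exons, the 11 receptors summed to 216 and 209 CPM per kb in DKO clones 1 and 5, 186 CPM per kb in PRDX1MT and 149.5 CPM per kb in WT. The 20 ligands summed to 65.5, 46.0, 65.2 and 46.4 CPM per kb in the same libraries. The highest level in every library was that of Plxnb2, the plexin that binds Sema4c, at 78.8, 81.1, 79.0 and 67.1 CPM per kb. The highest ligand in every library was Sema3f, the class 3 ligand that binds Nrp2, at 23.7, 17.3, 34.4 and 15.6 CPM per kb. Below Plxnb2 in WT came Plxna1 (20.9), Plxnd1 (18.0), Sema3f (15.6), Plxna2 (13.0), Nrp2 (9.65) and Nrp1 (9.34 CPM per kb). That order depended on the length used. Per kb of the longest transcript Plxnb2 stayed first at 79.8, but Nrp1 came second at 25.1 and Nrp2 seventh at 17.0 CPM per kb. At the low end, Sema4f had 7, 3, 0 and 3 reads and Sema5b 5, 2, 4 and 2 reads in DKO clone 1, DKO clone 5, PRDX1MT and WT. No receptor was without reads in any library.

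**Figure D1:**
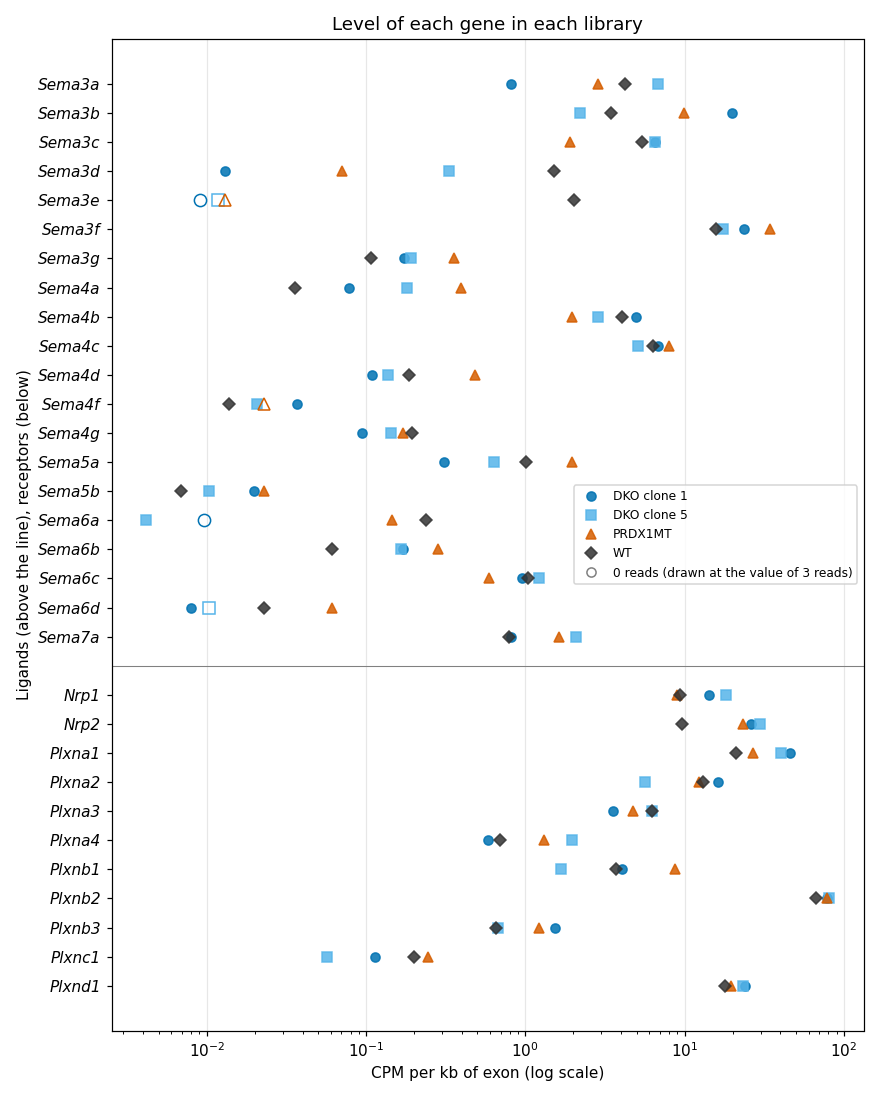
Level of each of the 31 genes in CPM per kb of exon (log axis), with 1 marker per library and ligands above the line. Open markers are libraries with 0 reads, drawn at the value of 3 reads. Receptors lie mostly to the right, Plxnb2 highest, and Sema3e has reads only in WT.

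In DKO cells the class 3 ligand Sema3e fell to no reads against WT, the 1 call of edgeR among 29 genes tested, where 0.468% of all genes were called. DESeq2 called 2 (Sema3e and Sema6a), where 1.35% of all genes were called. With no filter edgeR called 3, where 535 of 31043 genes were called. A filter of 1 CPM in 2 libraries, which leaves Sema3e out, gave 0 by edgeR, as it did over all genes. Sema3e (ENSMUSG00000063531, GRCm38/mm10 chromosome 5, 14025276 to 14256689, plus strand), the Plxnd1 ligand known for patterning vessels, had 0 reads in DKO clone 1, 0 in DKO clone 5 and 0 in PRDX1MT, against 775 reads (18.8 CPM, 17.5 to 20.2) in WT. Reads were thus seen in WT alone, and no edited library overlapped it. With the floor set at 3 counts for the clones together, Sema3e was at least 397-fold lower in DKO than in WT (adjusted p = 0.0191 by edgeR's quasi-likelihood test with Benjamini-Hochberg adjustment over all genes, 2.23e-09 by DESeq2, and 6.84e-21 to 0.0292 over the other scalings, no filter and only the groups compared). Against the same floor in 1 library, PRDX1MT was at least 156-fold lower than WT, with no test because each side was 1 library. In bulk RNA, fewer cells of a type and less RNA per cell cannot be told apart. Both clones had 0 reads, so Sema3e itself shows no spread between them. The p value rests on the spread of the 2 DKO clones over the genes tested, which edgeR shares between genes. That spread may be partly technical. When either clone was left out, the spread had to come from joining WT with PRDX1MT, which differ in Sema3e. That fit sets a clone against WT and PRDX1MT together, so it is no test against WT.

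Across the genes, 29 of 31 passed the filter on low counts. The others were Sema4f and Sema5b. Of the 29, 1 was lower and 0 were higher in DKO than in WT by edgeR, where 0.468% of all genes tested were called (91 of 19446), 0.453% lower and 0.0154% higher. With Sema3e, 4 had an unadjusted edgeR p under 0.05, the others being Nrp2, Sema3d and Sema6a, where 5.08% of all genes did. The median log2 ratio of the 29 was 0.06, against 0.03 over all genes tested. It was -0.07 for the 18 ligands tested and 0.40 for the 11 receptors. Against PRDX1MT 0 of the 29 passed by edgeR, where 0.206% of all genes were called (40 of 19446), 0.195% lower and 0.0103% higher. By DESeq2 0 passed, where 1.11% of all genes were called. At an unadjusted p under 0.05 edgeR gave 6 (Plxnb1, Sema3c, Sema4d, Sema5a, Sema6a and Sema6d), where 4.69% of all genes did. DESeq2 gave 4, where 776 of 19446 genes did. The median log2 ratio to PRDX1MT was -0.15 for the 29 and 0.04 over all genes tested. The 2 comparisons share the DKO clones.

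Single libraries were compared by a size rule without a p: a log2 CPM ratio of at least 1 in size, at least 100 reads in the 2 libraries together, and a 95% exact binomial interval of the ratio that excludes no change. In DKO clone 1 against WT 8 of 22 genes with enough reads passed (4 higher, 4 lower), where 16.0% of all genes did (8.41% higher, 7.59% lower). In DKO clone 5 against WT 7 of 22 passed (3 higher, 4 lower), where 14.3% of all genes did (5.69% higher, 8.59% lower). In PRDX1MT against WT 10 of 25 passed (6 higher, 4 lower), where 14.8% of all genes did (7.26% higher, 7.57% lower). These 3 comparisons share the WT library. With total counts in place of TMM factors, which shifted the median gene in PRDX1MT against WT by -0.27 on the log2 scale, 2 were higher (Sema3b and Sema4d) and 5 lower there, with Sema6c added to the 4. Nrp2, Plxnb1, Sema3f and Sema7a were then under the rule. The share of all genes past the rule with total counts was not computed. The other guidance families (slits, netrins, ephrins and their receptors, 44 of 45 listed genes found) passed in 4 of 23, 7 of 24 and 9 of 26 genes in the same comparisons. The semaphorin, plexin and neuropilin genes thus passed in 36.4%, 31.8% and 40.0%, and the other guidance families in 17.4%, 29.2% and 34.6%. By side, 5 of 11, 3 of 12 and 8 of 14 ligands passed, and 3 of 11, 4 of 10 and 2 of 11 receptors. These are descriptions of single libraries, and nothing particular to the family was tested.

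**Figure D2:**
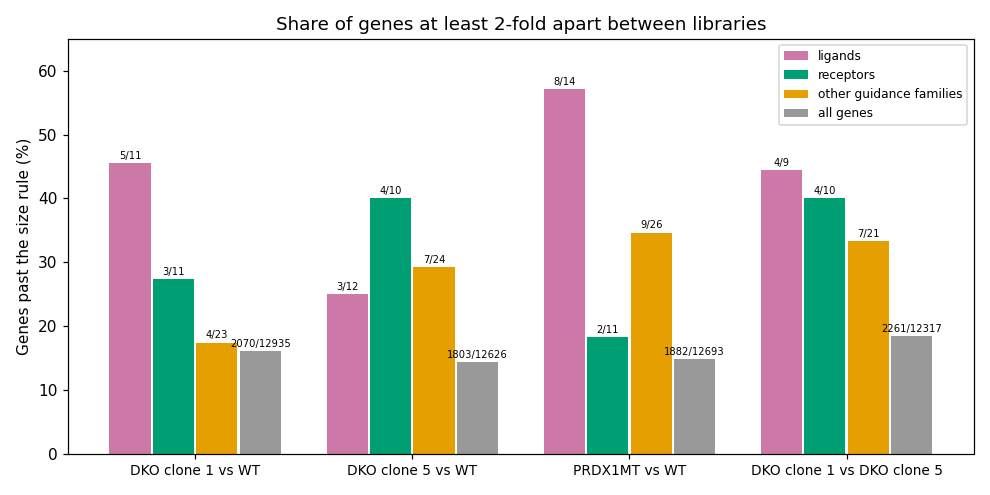
Percent of genes past the size rule in 4 comparisons of 1 library with another, for ligands, receptors, the other guidance families and all genes. Labels give the number past the rule over the number with at least 100 reads in the 2 libraries. All gene shares run from 14.3% to 18.4%.

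Of the secreted class 3 ligands, Sema3d and Sema3e were lower than WT by the size rule in all 3 edited libraries. Sema3d, Sema3a, Sema3e and Sema3c lie in that order on the plus strand of chromosome 5. Sema3d (12383385 to 12588948), a guidance cue for endothelial and neural crest cells, had 0.112 and 2.83 CPM in DKO clones 1 and 5 and 0.603 CPM in PRDX1MT, against 13.0 CPM in WT. All 3 edited libraries lay below the WT interval of 11.9 to 14.1 CPM. It was 116-fold lower in clone 1 (44.9 to 426), 4.58-fold in clone 5 (3.61 to 5.89) and 21.5-fold in PRDX1MT (12.9 to 38.7), each against WT. The clones differed from each other, and the DKO test did not pass (log2 ratio -3.15, SE 1.29, edgeR adjusted p = 0.912). Sema3a (13125414 to 13602565), which repels axons through Nrp1 and plexin A, had 11.2 CPM in DKO clone 1 and 94.7 CPM in clone 5, against 39.9 CPM in PRDX1MT and 58.7 CPM in WT. The clones lay on opposite sides of WT, with clone 1 5.23-fold lower (4.71 to 5.83). Clone 5 had a log2 ratio of 0.69 to WT, under the size rule. Sema3c (17574281 to 17730268), needed for the outflow tract of the heart, had 46.4 and 46.6 CPM in the DKO clones, 13.7 CPM in PRDX1MT and 38.5 CPM in WT. There PRDX1MT stood alone, 2.81-fold lower than WT (2.50 to 3.17), while DKO had a log2 ratio of 0.27 to WT (SE 0.45, edgeR adjusted p = 0.9996) and of 1.76 to PRDX1MT (SE 0.48, edgeR adjusted p = 0.496).

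The DKO label names the de novo DNA methyltransferases, which act on CG dinucleotides. Sema3e and Sema3d, low in the edited libraries, and Sema3c, near the WT level in DKO, were picked by their levels. For each, the 250 bases before a RefSeq transcript start are shown. They are RefSeq windows on GRCm38.p6, plus strand, at chr5:14025026-14025275 for Sema3e, chr5:12382916-12383165 for Sema3d and chr5:17574566-17574815 for Sema3c. They end at the RefSeq start of a transcript, which for Sema3d and Sema3c is not the GENCODE start of the gene given above. The Sema3c window lies inside the GENCODE gene, past its start, and those of Sema3e and Sema3d lie before theirs. Capitals mark each CG, which reads the same on both strands.
Sema3e: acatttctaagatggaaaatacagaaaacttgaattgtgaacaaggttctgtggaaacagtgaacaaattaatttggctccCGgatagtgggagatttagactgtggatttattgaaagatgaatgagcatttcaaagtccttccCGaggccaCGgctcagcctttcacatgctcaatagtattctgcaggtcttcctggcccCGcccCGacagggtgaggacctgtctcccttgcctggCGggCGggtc
Sema3d: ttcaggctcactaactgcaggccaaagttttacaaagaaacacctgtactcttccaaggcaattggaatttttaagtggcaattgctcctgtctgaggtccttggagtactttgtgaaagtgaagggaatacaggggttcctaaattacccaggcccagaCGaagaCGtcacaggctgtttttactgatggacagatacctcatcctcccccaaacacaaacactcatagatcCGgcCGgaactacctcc
Sema3c: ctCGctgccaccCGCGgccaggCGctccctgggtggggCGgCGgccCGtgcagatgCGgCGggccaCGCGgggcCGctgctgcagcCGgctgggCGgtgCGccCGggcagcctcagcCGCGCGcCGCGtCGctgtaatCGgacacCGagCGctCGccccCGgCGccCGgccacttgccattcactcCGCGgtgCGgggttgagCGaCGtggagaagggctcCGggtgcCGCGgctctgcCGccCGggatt
The Sema3e window held 7 CG, the Sema3d window 4 and the Sema3c window 39. Sema3a, of the same stretch, had a window with 2 CG, not shown. That window starts at 13396534, inside the GENCODE gene and far past its start at 13125414. The level of Sema3a was 11.2 CPM in DKO clone 1 and 94.7 CPM in clone 5, against 58.7 CPM in WT. A relation of CG number to level was not tested. Over all 32851 windows of this length in the table the median was 6, and 92.1% held at least 1 CG. At least as many CG as Sema3e, Sema3d and Sema3c were held by 46.3%, 62.2% and 1.56% of windows. Among the family, 26 genes had a window in the table (37 windows), with a median of 13 CG. Methylation was not measured in these files, and the counts are a description of letters.

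Cacna2d1 and Hgf, other protein-coding genes of the chromosome 5 stretch, were both below WT in each edited library, and of these Hgf passed the size rule. Cacna2d1, a calcium channel subunit between Sema3e and Hgf, had 38.5 and 36.7 CPM in the DKO clones, 37.4 CPM in PRDX1MT and 46.5 CPM in WT, with log2 ratios to WT of -0.27, -0.34 and -0.31. Hgf, the growth factor that binds Met, lies between Cacna2d1 and Sema3c and had 21.5, 6.90, 4.34 and 47.3 CPM in the same order. Hgf was thus lower than WT by the size rule in each edited library, and the DKO test did not pass (log2 ratio -1.73, edgeR adjusted p = 0.850).

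The other class 3 ligands differed between libraries without a shared direction. Sema3b (chromosome 9, 107597674 to 107609229, minus strand), studied as a tumour suppressor, had 95.2 CPM in DKO clone 1 and 10.6 CPM in clone 5, against 47.3 CPM in PRDX1MT and 16.4 CPM in WT. Clone 1 was 5.81-fold higher than WT (5.34 to 6.32) and PRDX1MT 2.88-fold higher (2.62 to 3.18), while clone 5 lay below WT at a log2 ratio of -0.63. Sema3f, its neighbour beyond Gnai2, had 123 and 90.0 CPM in the clones, 179 CPM in PRDX1MT and 81.3 CPM in WT, with PRDX1MT 2.20-fold higher than WT (2.10 to 2.30). Gnai2 itself, a G protein subunit, had 442, 532, 547 and 502 CPM in the same order. Sema3g, an endothelial ligand, had at most 40 reads in a library.

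**Figure D3:**
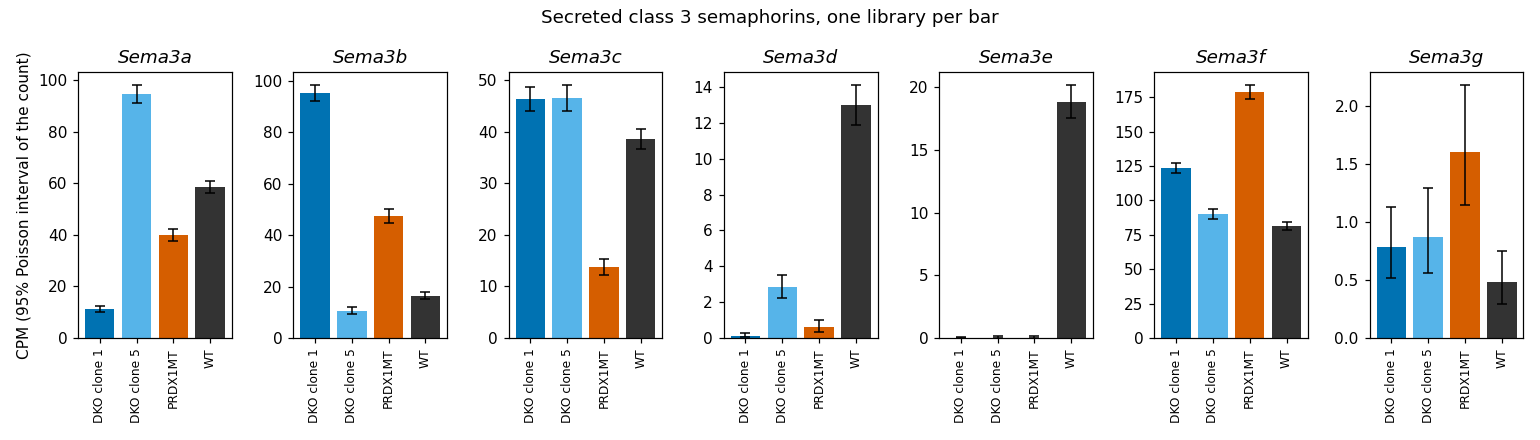
CPM of the 7 class 3 semaphorins, 1 bar per library, with 95% Poisson intervals of the count as error bars. Sema3d and Sema3e are lower in every edited library than in WT, and Sema3a is lower and Sema3b higher in DKO clone 1 than in DKO clone 5.

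Among the membrane-bound ligands, Sema6a had almost no reads in DKO, and the difference did not pass the test. Sema6a, which binds Plxna2 and Plxna4, had 0 reads in DKO clone 1 and 1 read in clone 5, against 32 reads in PRDX1MT and 86 reads in WT. The clones lay below both other libraries. DKO was 132-fold lower than WT (23.1 to 5277; log2 ratio -6.71, SE 1.24, edgeR adjusted p = 0.102) and 81.3-fold lower than PRDX1MT (13.6 to 3310; edgeR adjusted p = 0.212). DESeq2 called it against WT, together with Sema3e, where 1.35% of all genes were called. Sema6d, a Plxna1 ligand, had 3 and 0 reads in the clones, 16 in PRDX1MT and 10 in WT, too few for the size rule. Sema5a, a semaphorin with thrombospondin repeats, had 5.78 and 11.8 CPM in the DKO clones, 36.7 CPM in PRDX1MT and 18.9 CPM in WT. Both clones lay below both other libraries, clone 1 3.27-fold lower than WT (2.80 to 3.83) and clone 5 under the size rule. DKO was 4.36-fold lower than PRDX1MT (3.91 to 4.86), which did not pass the test (log2 ratio -2.06, SE 0.55, edgeR adjusted p = 0.471).

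Of the remaining membrane-bound ligands, Sema4b, Sema4d and Sema7a passed the size rule in PRDX1MT, and Sema7a also in DKO clone 5. Sema4d, which binds Plxnb1 and restrains bone formation, had 0.841 and 1.05 CPM in the DKO clones and 3.70 CPM in PRDX1MT, against 1.43 CPM in WT. PRDX1MT was 2.58-fold higher than WT (1.84 to 3.64). Sema4b had 28.1 and 16.2 CPM in the clones, 11.0 CPM in PRDX1MT and 23.0 CPM in WT, with PRDX1MT 2.09-fold lower than WT (1.82 to 2.39). Sema7a, the lipid-anchored ligand, had 2.69 and 6.86 CPM in the clones, 5.35 CPM in PRDX1MT and 2.6 CPM in WT. It was 2.64-fold higher than WT in clone 5 (2.07 to 3.38) and 2.06-fold higher in PRDX1MT (1.58 to 2.68). Sema4c, which binds Plxnb2, Sema4g and Sema6c passed the size rule in no comparison with WT. Sema4c and Sema6c had ratios to WT between -0.81 and 0.32 on the log2 scale, and 7.27% of the annotated Sema4c exons overlap an opposite-strand gene. Sema4a and Sema6b had at most 53 and 28 reads in a library.

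Of the 11 receptors, Nrp2 alone passed the size rule against WT in all 3 edited libraries. Nrp2 (chromosome 1, 62703285 to 62818695, plus strand), the neuropilin that binds Sema3f and VEGF-C, had 311 CPM in DKO clone 1, 352 CPM in DKO clone 5 and 274 CPM in PRDX1MT, against 114 CPM in WT. All 3 edited libraries were above WT and near each other. The folds over WT were 2.72 in clone 1 (2.63 to 2.82), 3.08 in clone 5 (2.97 to 3.19) and 2.40 in PRDX1MT (2.31 to 2.49). The DKO difference did not pass over all genes (331 ± 28.9 CPM in DKO, SD, n = 2; log2 ratio 1.54, SE 0.52, edgeR adjusted p = 0.656). With total counts in place of TMM factors the PRDX1MT log2 ratio was 0.99, just under the size rule. Nrp1, the neuropilin of Sema3a and VEGF-A, had 138 and 179 CPM in the clones, 87.9 CPM in PRDX1MT and 91.4 CPM in WT, and passed in no comparison with WT (log2 ratio 0.80 in DKO, SE 0.48, edgeR adjusted p = 0.9996).

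**Figure D4:**
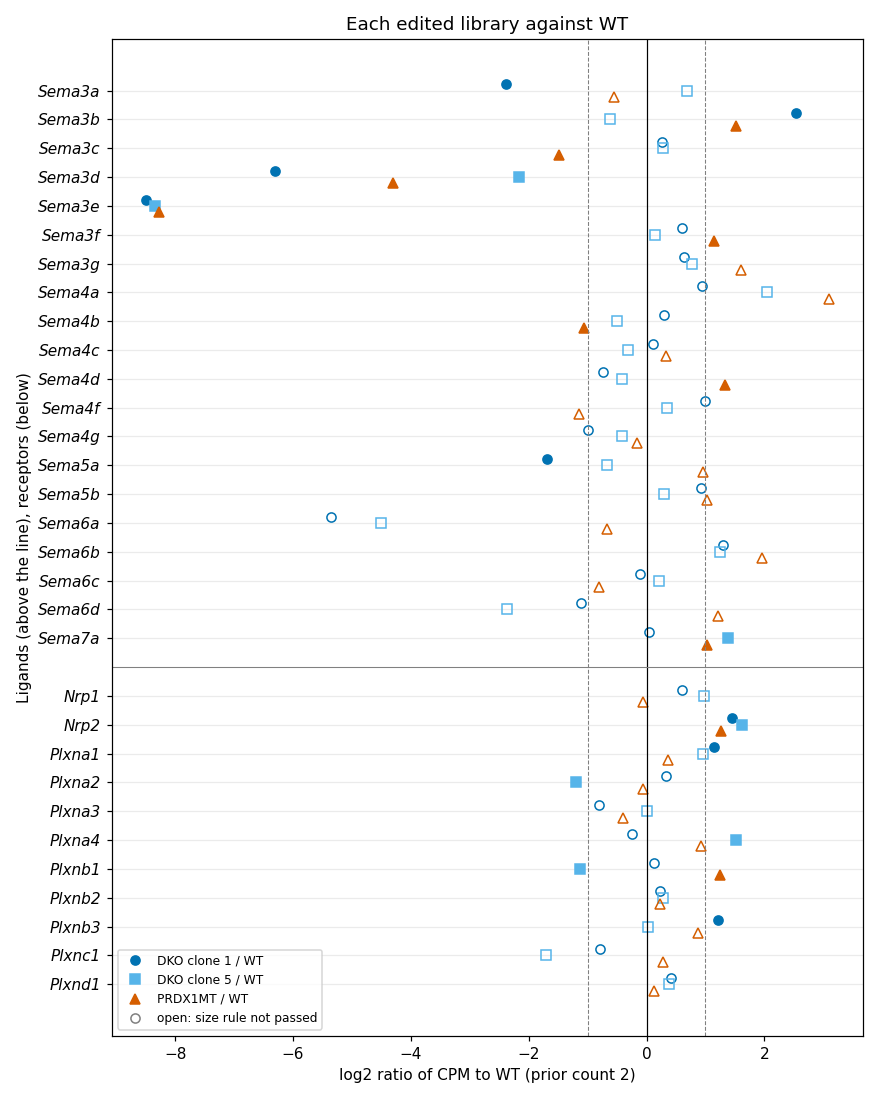
log2 ratio of CPM to WT for each gene in DKO clone 1, DKO clone 5 and PRDX1MT, ligands above the line. Filled markers passed the size rule, and dashed lines mark a ratio of 1 in size. Sema3e lies lowest, Sema3d is filled below 0 and Nrp2 above 0 in all 3 edited libraries.

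Of the plexins A, which pair with neuropilins, Plxna1 had 418 and 367 CPM in the DKO clones, 244 CPM in PRDX1MT and 189 CPM in WT. Clone 1 was 2.21-fold higher than WT (2.15 to 2.27), and clone 5 was just short of the size rule with a log2 ratio of 0.96. The exons of Plxna1 overlap those of an opposite-strand gene over 970 of 9054 bases, and strand use in counting is not given. Plxna2 had 280 CPM in clone 1 and 97.6 CPM in clone 5, against 213 CPM in PRDX1MT and 223 CPM in WT, with clone 5 2.28-fold lower than WT (2.19 to 2.39). Plxna4 had 8.19 CPM in clone 1 and 27.8 CPM in clone 5, against 18.4 CPM in PRDX1MT and 9.72 CPM in WT, with clone 5 2.86-fold higher than WT (2.53 to 3.24). Plxna3 had 28.1 and 49.3 CPM in the clones, 37.1 CPM in PRDX1MT and 49.2 CPM in WT, under the size rule.

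Of the plexins B, which bind class 4 semaphorins, Plxnb2 was even across libraries, at 608 and 626 CPM in the DKO clones, 610 CPM in PRDX1MT and 518 CPM in WT. Plxnb1 had 38.6 and 16.1 CPM in the clones, 83.8 CPM in PRDX1MT and 35.4 CPM in WT. PRDX1MT was 2.37-fold higher than WT (2.21 to 2.53) and clone 5 2.20-fold lower (1.98 to 2.45). Plxnb3, the Sema5a receptor, had 9.93 and 4.36 CPM in the clones, 7.92 CPM in PRDX1MT and 4.28 CPM in WT, with clone 1 2.32-fold higher than WT (1.93 to 2.80). Plxnc1, the Sema7a receptor, had 34 and 13 reads in the clones, 51 in PRDX1MT and 69 in WT. Plxnd1, the Sema3e receptor, had 176 and 171 CPM in the clones, 143 CPM in PRDX1MT and 132 CPM in WT. It was close to even where its ligand had no reads, with a log2 ratio of 0.40 in DKO against WT (SE 0.46, edgeR adjusted p = 0.9996).

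Some of the known ligand and receptor pairs are set side by side next. Other pairs named above, among them Sema5a with Plxnb3 and Sema7a with Plxnc1, are left out here. Sema3e had 0 reads in the 3 edited libraries, where Plxnd1 had 143 to 176 CPM, against 132 CPM of Plxnd1 in WT. Sema3f and its receptor Nrp2 had log2 ratios to WT of 0.60 and 1.44 in DKO clone 1, 0.15 and 1.62 in DKO clone 5, and 1.14 and 1.26 in PRDX1MT. Sema4d and Plxnb1 were both higher than WT in PRDX1MT (log2 ratios 1.33 and 1.24). Their log2 ratios to WT were -0.73 and 0.12 in DKO clone 1 and -0.42 and -1.13 in DKO clone 5, with too few Sema4d reads for the size rule in either clone. Sema3a and its receptor Nrp1 had log2 ratios to WT of -2.38 and 0.60 in DKO clone 1, 0.69 and 0.97 in DKO clone 5, and -0.56 and -0.06 in PRDX1MT.

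The DKO clones differed from each other in this family. By the size rule 8 of 19 genes with enough reads differed between DKO clone 1 and DKO clone 5, 4 higher and 4 lower in clone 1, where 18.4% of all genes differed (10.7% higher, 7.63% lower). Sema3b was 8.98-fold higher in clone 1 (7.97 to 10.2), Plxna2 2.87-fold (2.75 to 2.999), Plxnb1 2.40-fold (2.15 to 2.67) and Plxnb3 2.28-fold (1.85 to 2.83). Sema3a was 8.44-fold lower in clone 1 (7.60 to 9.40), Plxna4 3.40-fold (2.97 to 3.90), Sema7a 2.55-fold (1.98 to 3.30) and Sema5a 2.05-fold (1.72 to 2.45). The edgeR test of DKO against WT or against PRDX1MT passed 0 of these 8. Sema3c (log2 ratio -0.01), Plxnb2 (-0.04) and Plxnd1 (0.04) were nearly equal in the clones.

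Against PRDX1MT, 8 of 20 genes with enough reads passed the size rule in DKO clone 1, where 15.0% of all genes did (8.14% higher, 6.84% lower). Sema3b, Sema3c and Sema4b were higher, and Plxna4, Plxnb1, Sema3a, Sema4d and Sema5a lower. In DKO clone 5 it was 9 of 20, where 13.8% of all genes did (5.81% higher, 8.0% lower). There Nrp1, Sema3a, Sema3c and Sema6c were higher, and Plxna2, Plxnb1, Sema3b, Sema4d and Sema5a lower. Alike in both clones were Sema3c, 3.38-fold and 3.40-fold higher than PRDX1MT, and Plxnb1, Sema4d and Sema5a, of which Sema5a was 6.35-fold and 3.10-fold lower in clones 1 and 5.

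In the wider pathway, Tiam1 fell in DKO. Tiam1, an exchange factor that activates Rac, had 0.112 and 0.109 CPM in DKO clones 1 and 5, against 6.15 CPM in PRDX1MT and 16.9 CPM in WT. It was 152.5-fold lower than WT in DKO (73.6 to 381; log2 ratio -7.20, SE 0.71, edgeR adjusted p = 0.0191) and 55.5-fold lower than PRDX1MT (26.3 to 140; edgeR adjusted p = 0.0410). The call against PRDX1MT ended with median-of-ratios and total-count scaling (edgeR adjusted p = 0.051 and 0.0722), with only the groups compared (0.0845) and with 1 CPM in 2 libraries (0.165), and was 6.25e-07 by DESeq2. The call against WT ended with 1 CPM in 2 libraries (edgeR adjusted p = 0.149), where no gene was called. Of 46 tested genes of plexin signalling inside the cell, out of 48 listed, edgeR passed 1 against WT and 1 against PRDX1MT, Tiam1 in both, where 0.468% and 0.206% of all genes were called. DESeq2 passed 1 and 2, adding Ptk2b, a focal adhesion kinase relative, against PRDX1MT, where it called 1.35% and 1.11% of all genes. Ptk2b had 12 and 6 reads in the DKO clones, 262 in PRDX1MT and 78 in WT (edgeR adjusted p = 0.053 against PRDX1MT). The median log2 ratio of the list to WT was 0.11, against 0.03 over all genes tested. Rnd1, a GTPase that binds the plexin tail, had 33.1 and 34.5 CPM in the clones, 51.1 CPM in PRDX1MT and 11.9 CPM in WT, and did not pass the test (log2 ratio 1.51, SE 0.48, edgeR adjusted p = 0.586). Fes, a kinase downstream of Sema3a, had 2.38 and 1.71 CPM in the clones, 7.64 CPM in PRDX1MT and 5.71 CPM in WT (log2 ratio -1.48, SE 0.63, edgeR adjusted p = 0.983).

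Of 20 co-receptors and alternative receptors, 13 were tested and 0 passed by edgeR against WT or against PRDX1MT, with 0 at an unadjusted p under 0.05 in each and 0 by DESeq2, and the median log2 ratio to WT was -0.15. Flt1, a VEGF receptor that joins neuropilins, had 0.365 and 10.2 CPM in DKO clones 1 and 5, 29.6 CPM in PRDX1MT and 27.3 CPM in WT (log2 ratio -2.38 to WT, SE 1.28, edgeR adjusted p = 0.9996). Of the 5 VEGF ligands, which share the neuropilins with class 3 semaphorins, 0 passed by edgeR and 0 by DESeq2. Likewise 0 had an unadjusted edgeR p under 0.05. Over all genes tested, edgeR called 0.468% against WT and 0.206% against PRDX1MT, and DESeq2 1.35% and 1.11%. At an unadjusted edgeR p under 0.05 the shares were 5.08% and 4.69%. With 13 and 5 genes tested, 0 calls do not show that these lists were unchanged. The median log2 ratio of the 5 VEGF ligands to WT was 1.06 in DKO. Over the 3 with enough reads it was 1.42 in clone 1 and -0.22 in clone 5. Vegfa had 145 and 55.3 CPM in the clones, 142 CPM in PRDX1MT and 44.6 CPM in WT. Among 31 tested genes of the other guidance families 2 fell in DKO against WT by edgeR, Slit3 and Robo1, where 0.468% of all genes were called, and 4 by DESeq2, where 1.35% were. The median log2 ratio of the 31 was 0.05. Slit3, a secreted ligand of Robo receptors, had 0 reads in both clones, against 970 reads in PRDX1MT and 233 reads in WT, at least 119-fold lower than WT and 821-fold lower than PRDX1MT (edgeR adjusted p = 0.0209 and 0.0243). With 1 CPM in 2 libraries both Slit3 calls ended (edgeR adjusted p = 0.163 and 0.140). Robo1, a receptor of slits, had 0 and 1 reads in the clones and 0 in PRDX1MT, against 236 reads in WT, 362-fold lower in DKO (64.4 to 14380; edgeR adjusted p = 0.0373). As with Sema3e, nearly all its reads were in WT, so a filter of 1 CPM in 2 libraries leaves Robo1 out. Efna5, an ephrin ligand, had 0.505 and 12.4 CPM in the clones, 26.5 CPM in PRDX1MT and 40.2 CPM in WT (log2 ratio -2.65 to WT, SE 1.25, edgeR adjusted p = 0.9996).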

How the data were processed

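RNA was read in 4 libraries. Per the labels' protocols a stranded total RNA kit with ribosomal RNA removal was used, and the submitters' processing notes name STAR 2.6.1d and mm10. No counting program, annotation release or strand option is given in the sources used here. Each deposited file holds whole counts per Ensembl gene, without normalization by the authors. Of 54532 identifiers 54495 were found in GENCODE M21 (GRCm38), which gave symbols, exons and positions.

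Counts were fitted in R 4.3.3 with edgeR 4.0.16 by quasi-likelihood as 3 groups (TMM, filterByExpr, 19446 genes, Benjamini-Hochberg adjusted p under 0.05), leaving 1 residual degree of freedom. p-values measure the spread between these samples only. The fit was also run on simulated data, with the same spread for every gene and changes in DKO only. A gene with reads in WT alone, such as Sema3e, was not simulated. CPM use the TMM-scaled library size, in which 3 counts were worth 0.0729 to 0.121 CPM. Intervals are exact at 95%, Poisson for levels and binomial for folds, covering counting error only. Log2 ratios of single libraries used a prior count of 2. DKO folds pool the reads of both clones. Promoter sequences are from RefSeq (GRCm38.p6).

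Members, lists and tests were chosen with earlier results of these data known. Named genes were members past a test or the size rule, the listed genes past the test, and up to 3 per list past the size rule alike in both clones. Genes named outside this rule, among them Hgf, Cacna2d1, Gnai2, Vegfa, Sema6a, Sema6d, Ptk2b, Kdr, Ptprc and Stmn2, were chosen after their values were seen. So were Nt5e, Tek, Cd68 and Gfap. Alternatives were DESeq2 1.42.0, other scaling, filters, read minimums and prior counts, only the groups compared, and each clone left out.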

Additional observations from a re-analysis of the deposited data

How the results depend on the processing

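Of the 29 tested genes, DKO against WT called 1, and the same count came with median-of-ratios scaling, total-count scaling and only the groups compared. DESeq2 called 2 (Sema3e and Sema6a), no filter 3 (Sema3d as well), and 1 CPM in 2 libraries 0, a filter that Sema3e, with reads in 1 library, cannot pass. With a clone left out, the fit could only set the kept clone against WT and PRDX1MT joined. That fit tests neither comparison, so no count of the 29 genes from it is given. Against PRDX1MT the count was 0, and 2 with no filter (Sema5a and Sema6a). Over all genes, 91 calls against WT became 262 by DESeq2 and 535 with no filter. They became 0 with 1 CPM in 2 libraries (490 at an unadjusted p under 0.05). The 40 against PRDX1MT became 215 by DESeq2, 13 by median-of-ratios and 7 by total-count scaling, and 11 with only the groups compared. They became 404 with no filter and 0 with 1 CPM in 2 libraries (530 at an unadjusted p under 0.05). The cause of these shifts was not tested. Over all genes, the fit against WT and PRDX1MT joined called 21 without clone 1 and 92 without clone 5. Those 21 and 92 are counts against neither WT nor PRDX1MT alone, so they are not set beside the 91 or the 40. A log2 ratio of at least 2 left 2 genes in PRDX1MT, 4 in DKO clone 1, 2 in clone 5 and 2 between the clones. A minimum of 20 reads gave 11 in clone 5. The shares of all genes under these changed rules were not computed, so these counts have no background. Of 397 recomputed log2 ratios 22 turned sign, none of them a called value, and 3 of these with both clones kept (Plxna4 and Plxnb3 against PRDX1MT and Sema6c against WT, by total-count scaling). Signs with a clone left out were read from ratios of the kept clone to WT or to PRDX1MT alone. Leaving out a clone turned the sign of 9 of 29 genes against WT and of 9 against PRDX1MT. Among them, Plxna2 against WT was -0.24 and became 0.33 without clone 5, Plxna4 was 0.89 and became -0.25 without clone 5, Sema3a was -0.15 and became 0.69 without clone 1, and Sema3b was 1.69 and became -0.63 without clone 1. No paired analysis was possible because the labels of WT and PRDX1MT carry no replicate number and the numbers of DKO are clone names. With 1 library of WT and of PRDX1MT, depth sets no limit on their biological spread, which is unknown.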
